A study of Homo sapiens with 6 samples.

Results

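The genes examined here are 58 autosomal nuclear genes that encode subunits of complexes I to IV of the mitochondrial respiratory chain, out of 20098 protein-coding genes of chromosomes 1 to 22 and X. They were taken as a list of gene symbols: 33 subunits of complex I, 4 of complex II, 6 of complex III and 15 of complex IV. The list was chosen by function and not by a threshold on measured values, though with earlier results of these data known. Their methylation was measured by whole-genome bisulfite sequencing in 3 Conventional and 3 Reset libraries of H9, an established line of human embryonic stem cells. Conventional cells were grown on mouse feeder cells with 20% KSR, a serum replacement, and 10 ng/ml bFGF. Reset cells were H9 cells in which NANOG and KLF2 had been expressed for a limited time from doxycycline-dependent transgenes, and which were then kept without doxycycline, also on feeders, in t2iL+Gö. This medium holds 1 μM of the GSK3 inhibitor CHIR99021, 1 μM of the MEK inhibitor PD0325901, LIF and 5 μM of the protein kinase C inhibitor Gö6983. All cells were kept at 5% oxygen. The study calls the 3 libraries of each state biological replicates, without stating separate resettings. The adjusted p-values below come from counts of calls. The spread between these libraries enters them through a dispersion that borrows from all windows tested and is never set below counting error. They are therefore not a measure of the spread between 3 libraries alone. As the study compared the respiration of these cell states, the question here is which promoters of the chain were methylated in Conventional cells, and what level they had in Reset cells. RNA was not analysed here.

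The respiratory chain passes electrons from NADH (complex I) and succinate (complex II) through ubiquinone and complex III to cytochrome c, and complex IV, cytochrome c oxidase, hands them to oxygen. Most subunits are encoded by housekeeping genes that are used in nearly every cell, and their promoters commonly lie in CpG islands, which are as a rule free of methylation. Complex IV also has subunits with isoforms that are found in particular tissues. Of the 58 genes, 5 encode such isoforms: COX4I2 (lung), COX6A2 and COX7A1 (heart and skeletal muscle), and COX6B2 and COX8C (testis). Each stands beside a general isoform on the list, COX4I1, COX6A1, COX7A2, COX6B1 and COX8A. The other 53 genes are called general subunits below.

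The sequences of 2 such pairs, in which the tissue-restricted isoform was methylated in Conventional cells and the general isoform nearly free of methylation near its start site, are shown over 250 bases directly before the canonical transcription start site, in GRCh37, on the strand of the gene and from 5′ to 3′. Capitals mark the CpG dinucleotides, the sites at which methylation was called. The COX7A1 stretch (chr19:36643350-36643599, minus strand) holds 24 CpGs, and 87 of 105 calls in Conventional and 17 of 97 in Reset cells were methylated, 82.9% and 17.5%. In COX7A2 (chr6:75953518-75953767, minus strand), with 17 CpGs, the counts were 1 of 289 and 0 of 197, and a count of 0 of 197 allows a level of up to 1.52%. COX8C (chr14:93813278-93813527, plus strand) holds only 8 CpGs, with 14 of 16 calls methylated in Conventional and 19 of 36 in Reset cells. Of the 16 calls 15 came from 1 Conventional library and another had none, so this stretch gives no spread for Conventional cells. COX8A (chr11:63741842-63742091, plus strand) holds 16, with 2 of 148 and 0 of 122 calls methylated, the latter allowing up to 2.46%.
COX7A1: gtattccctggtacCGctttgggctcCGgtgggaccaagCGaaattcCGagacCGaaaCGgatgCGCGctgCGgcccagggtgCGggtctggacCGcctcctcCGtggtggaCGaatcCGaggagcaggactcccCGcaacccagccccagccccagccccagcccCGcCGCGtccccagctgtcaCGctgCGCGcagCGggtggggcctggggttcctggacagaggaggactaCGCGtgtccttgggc
COX7A2: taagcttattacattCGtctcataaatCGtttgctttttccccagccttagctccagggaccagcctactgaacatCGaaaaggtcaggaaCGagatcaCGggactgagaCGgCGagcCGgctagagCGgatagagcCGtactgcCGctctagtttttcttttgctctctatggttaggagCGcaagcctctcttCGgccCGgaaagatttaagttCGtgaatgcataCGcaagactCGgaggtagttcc
COX8C: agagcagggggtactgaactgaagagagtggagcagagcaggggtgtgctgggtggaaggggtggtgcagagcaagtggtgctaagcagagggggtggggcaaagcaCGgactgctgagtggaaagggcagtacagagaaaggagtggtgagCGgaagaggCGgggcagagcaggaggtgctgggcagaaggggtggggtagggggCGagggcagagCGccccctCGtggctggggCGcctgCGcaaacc
COX8A: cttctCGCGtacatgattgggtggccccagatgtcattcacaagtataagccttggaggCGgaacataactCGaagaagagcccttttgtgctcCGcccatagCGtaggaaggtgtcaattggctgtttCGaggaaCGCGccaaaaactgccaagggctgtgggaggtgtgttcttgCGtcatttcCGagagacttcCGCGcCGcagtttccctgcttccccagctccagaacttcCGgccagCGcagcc

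Methylation levels are given as methylated calls in percent of all calls at the CpGs of a window. Library totals were 92023996 to 98004161 calls in Conventional and 70329213 to 80199615 in Reset cells, or 2.51 to 3.49 calls per CpG. A promoter was the window from 1000 bp before to 500 bp after the canonical start site, and the member promoters held 42 to 449 calls per library (median 202.5). Over all CpG calls, 84.4% ± 0.161 were methylated in Conventional and 30% ± 0.432 in Reset libraries (SD, n = 3 each; two-sided exact permutation test, p = 0.1, the smallest that 3 against 3 can give). Counts of promoters and bodies that fell are therefore set beside the same share over all coding genes, apart from some alternative fits at the end. Calls on mitochondrial DNA were methylated at 0.394% ± 0.0277 in Conventional and 0.274% ± 0.0284 in Reset libraries (SD, n = 3), so levels under 1% are near the lowest these libraries show. Counts of calls without molecular identifiers are not independent molecules, and limits derived from them cover counting error only.

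Of the 58 promoters, all had at least 10 calls in every library and were tested. A total of 47 fell in Reset cells (quasi-binomial test on calls with limma's squeezed dispersion, Benjamini-Hochberg adjusted over all coding promoters), against 67.5% of all coding promoters, none rose, against 3.97%, and 11 did not pass the threshold. In 46 promoters the highest Reset library was lower than the lowest Conventional library, which held for 69.1% of all coding promoters. The median promoter level of the 58 genes was 13.6% in Conventional and 2.40% in Reset cells, and that of all coding promoters 15.6 and 5.03%. In Conventional cells 24 of the 58 promoters were under 10%, 17 at 10 to 20%, 13 at 20 to 50% and 4 at 50% or more. In Reset cells 51 were under 10%, and 18 of them under 1%. By complex, 28 of 33 promoters of complex I fell, 2 of 4 of complex II, 4 of 6 of complex III and 13 of 15 of complex IV.

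**Figure D1:**
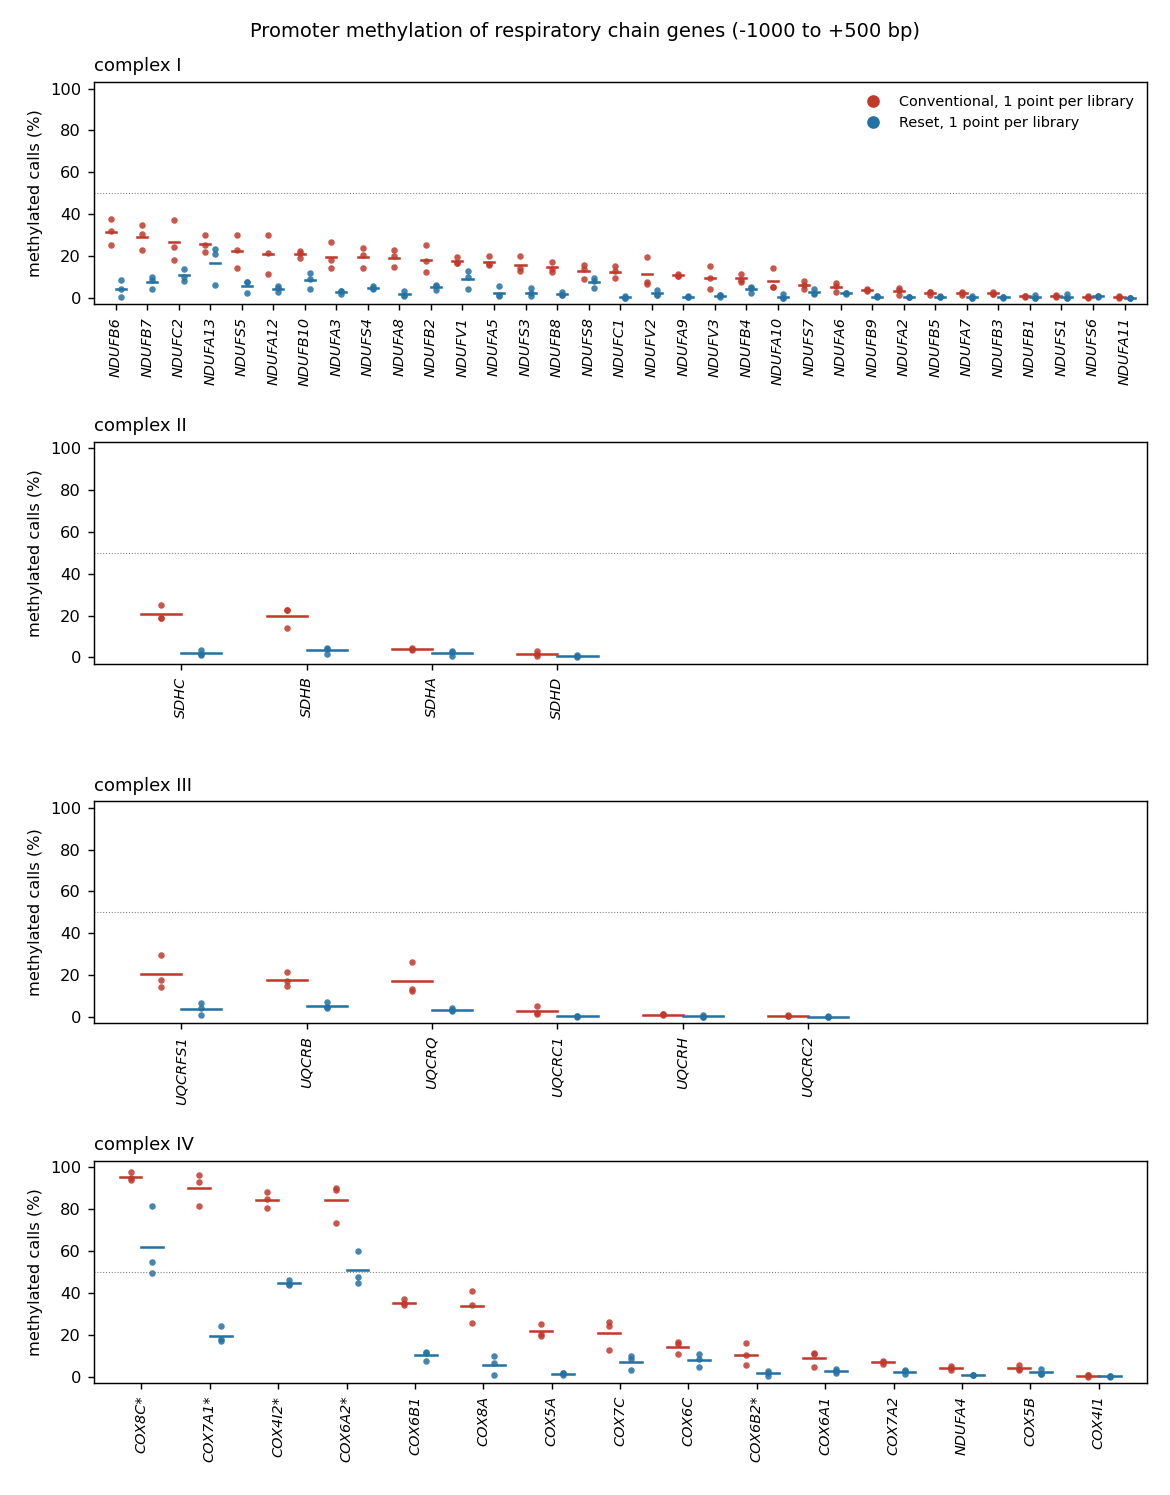
Promoter methylation (percentage of methylated calls, linear axis) of the 58 genes by complex, with 1 point per library and a line at the mean of 3 libraries, Conventional in red and Reset in blue. Asterisks mark tissue-restricted isoforms, and the dotted line is at 50%. The 4 promoters above 50% in Conventional cells, COX8C, COX7A1, COX4I2 and COX6A2, stand apart from all others, whose highest mean is 35.3% in COX6B1.

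The 4 promoters that were at least 50% methylated in Conventional cells all belonged to tissue-restricted isoforms of complex IV. This holds for the canonical start sites, and with the most upstream annotated ones the count is 9, of which 5 are general subunits. All 4 fell, as did 99.3% of the 5241 coding promoters at this Conventional level. The mean Reset levels of the 4 ran from 19.6% in COX7A1 to 61.8% in COX8C, and not all of them differed beyond their spread. The promoter of COX7A1, the muscle isoform of subunit VIIa (ENSG00000161281, chr19:36642849-36644349, 67 CpGs), was at 96.5, 92.9 and 81.3% in the Conventional libraries and at 18.0, 23.9 and 16.8% in the Reset libraries. Its fall was 70.6 points with an SE of 5.09 (adjusted p = 3.06e-07). Every Conventional library was above 80% and every Reset library under 25%.

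COX4I2, the lung isoform of subunit IV (ENSG00000131055, 60 CpGs), was at 88.0, 84.8 and 80.7% in Conventional and 44.4, 43.8 and 46.2% in Reset libraries. The fall was 39.8 points with an SE of 2.23 (adjusted p = 3.98e-06), and over the whole window the Reset libraries lay within a narrow range. From 250 bp before to 50 bp after the start site they did not: the Conventional libraries were at 81, 82.4 and 69% and the Reset libraries at 28.6, 61 and 92.3%, so that the states overlapped and no fall was called there (adjusted p = 0.576). These Reset levels rest on only 21, 41 and 13 calls, and the Conventional levels on 42, 34 and 42. COX6A2, the muscle isoform of subunit VIa (ENSG00000156885, chr16:31439181-31440681, 64 CpGs), was at 89.1, 90.1 and 73.5% and then at 60.0, 47.7 and 44.6%. The fall was 33.5 points with an SE of 7.13 (adjusted p = 0.000381). Only 2 of the COX6A2 CpGs lay over 500 bp before the start site, with 21 of 24 calls methylated in Conventional and 2 of 21 in Reset cells. From 250 bp before to 50 bp after it lay 5 CpGs, with 25 of 28 and 13 of 27 calls methylated. The level of the whole COX6A2 window thus rests mainly on its other CpGs. COX8C, the testis isoform of subunit VIII (ENSG00000187581, chr14:93812528-93814028, 60 CpGs), was at 93.9, 97.6 and 94.7% and then at 54.5, 49.6 and 81.3%. The fall was 33.6 points with an SE of 9.90 (adjusted p = 0.000356). The third Reset library stood above the other Reset libraries in COX8C, and still below every Conventional library. The COX8C window also overlaps UNC79, another coding gene.

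The order of the Reset levels was COX8C (61.8% ± 17.0), COX6A2 (50.8% ± 8.13), COX4I2 (44.8% ± 1.24) and COX7A1 (19.6% ± 3.82; SD, n = 3 each). The libraries of COX6A2 overlapped with those of COX8C and of COX4I2, so these neighbours did not differ beyond their spread. The Reset libraries of COX7A1 were all lower than those of each of the other 3, with a gap of 25.2 points to COX4I2 (SE 2.32). As a background, 5241 coding promoters were at least 50% methylated in Conventional cells, with a median of 88.2% there and 31.5% in Reset cells, and 450 of them (8.59%) stayed at 50% or more. COX8C had a higher Reset level than 99% of these promoters, COX6A2 than 92.5%, COX4I2 than 82% and COX7A1 than 24%. These places rest on means of 3 libraries, and those of COX8C ranged from 49.6 to 81.3%. Calls over the gene spans of COX6A2, COX8C and COX7A1 were 2.31, 1.66 and 1.32 times as frequent in Reset as in Conventional libraries, relative to library totals, against a median of 1.09 over the 58 genes. NDUFA4 and NDUFB10 were at 1.49 as well, and COX4I2 at 0.872. The part of this difference in coverage in the levels was not tested.

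The fifth tissue-restricted isoform, COX6B2 of testis (ENSG00000160471, chr19:55865587-55867087, 91 CpGs), did not share the high level of the other 4. Its promoter was at 5.35, 10.2 and 16% in Conventional and 1.51, 0.495 and 2.66% in Reset libraries, a fall of 8.96 points with an SE of 3.15 (adjusted p = 0.00264). Most of its methylated calls lay over 500 bp before the start site, where 40 of 86 calls were methylated in Conventional cells. Between 250 bp before and 50 bp after the start site only 2 of 219 calls were.

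The general isoforms of the same subunits had low promoter levels around the start site in both states. COX4I1, the general isoform of subunit IV, was at 0.510% ± 0.461 and 0.271% ± 0.237 (SD, n = 3) and did not pass the threshold (adjusted p = 0.440). COX7A2 went from 6.74% ± 0.709 to 2.28% ± 0.793 (adjusted p = 0.00841) and COX6A1 from 8.70% ± 3.76 to 2.67% ± 1.03 (adjusted p = 0.00841; SD, n = 3), and both calls were lost without the second Reset library. COX6B1 and COX8A had the highest promoter levels of all general subunits in Conventional cells. COX6B1 was at 36.9, 34.2 and 34.9% and then at 7.47, 11.2 and 12% (adjusted p = 4.67e-06), and COX8A at 34.4, 25.6 and 40.9% and then at 6.40, 9.80 and 0.897% (adjusted p = 4.00e-05). In both genes the methylated CpGs of Conventional cells lay before the start site and not at it: over 500 bp upstream, 89.1 and 97.8% of calls were methylated, and in the last 250 bp before the start site 0 of 152 and 2 of 148 calls. A count of 0 of 152 allows a level of up to 1.97%.

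Single CpGs were counted with the calls of the 3 libraries of a state pooled and at least 5 calls in each state. Most CpGs of the 4 isoforms fell short of this minimum. Those that reached it were 20 of 60 in COX8C, 15 of 60 in COX4I2, 17 of 67 in COX7A1 and 9 of 64 in COX6A2. These counted CpGs were almost uniformly methylated in Conventional cells and mixed in Reset cells. In COX8C 20 of 20 counted CpGs were at 80% or more in Conventional cells, and in Reset cells 2 were at 80% or more, 16 between 20 and 80% and 2 under 20%. COX4I2 had 15 such CpGs, all at 80% or more in Conventional cells, and 1, 10 and 4 in the same classes in Reset cells. Of 17 CpGs of COX7A1 16 were at 80% or more in Conventional cells, none in Reset cells, where 12 lay between 20 and 80% and 5 under 20%. COX6A2 had 9, of which 8 were at 80% or more in Conventional cells, and in Reset cells 5 lay between 20 and 80% and 4 under 20%. In COX4I1, 84 of 84 CpGs were under 20% in Reset and 83 of 84 in Conventional cells. Single CpGs rest on few calls, and COX6A2 and COX8C were thinly covered just after the start site in Conventional cells. The counted CpGs also do not stand for the whole windows. Over all pooled calls, COX4I2 was at 77.1% in Conventional cells from 250 bp before to 50 bp after the start site. The whole COX6A2 window was at 51.7% in Reset cells.

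**Figure D2:**
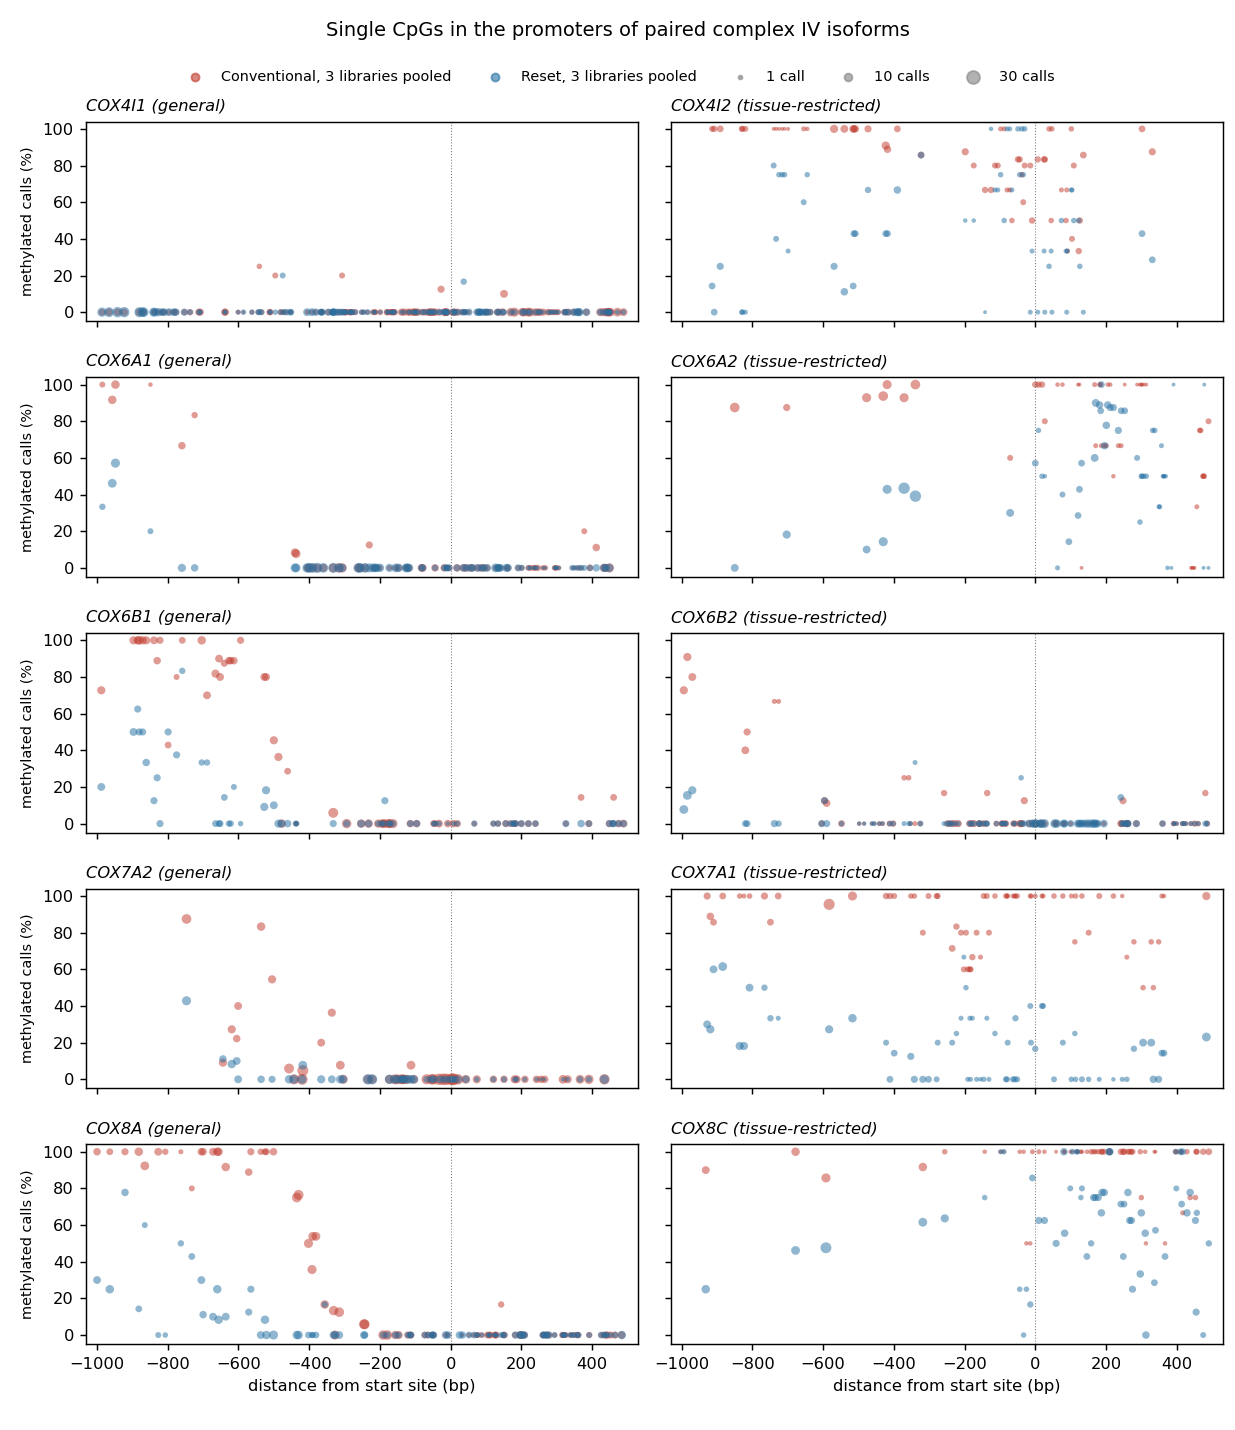
Methylation of single CpGs (percentage of methylated calls, linear axis) against distance from the start site in bp, for the general (left) and tissue-restricted (right) isoform of each of 5 complex IV subunits, with the calls of 3 libraries pooled. The area of a point grows with its number of calls, and Conventional is in red and Reset in blue. COX4I2, COX6A2, COX7A1 and COX8C carry CpGs at 50% or more on both sides of the start site in Conventional cells, while in the other 6 genes no CpG with at least 5 calls reaches 50% after it.

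The promoters of the general subunits were methylated in Conventional cells mainly far upstream of the start site. From 250 bp before to 50 bp after the start site the median level of the 53 general subunits was 0.457% in Conventional and 0% in Reset cells, over pooled calls, and the highest was 5.85% in Conventional cells. Over 500 bp upstream, to the edge of the window, the median was 68.8% and then 11.0%, and in 52 of 53 genes the pooled Reset level was the lower, NDUFB1 being the exception (0.433 and 0.781%). The same stretch of all coding genes had medians of 67.1 and 15.2%, and 87.6% of them had the lower level in Reset cells. Of the 56 members with enough calls from 250 bp before to 50 bp after the start site, 1 fell (COX7A1), against 7.57% of all coding genes, and none rose, against 0.708%. COX6A2 and COX8C had too few calls there. With the window shortened to 500 bp on each side of the start site, 20 of the 58 promoters fell, against 39.8% of all coding promoters.

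Among the complex I promoters with 20% or more in Conventional cells, NDUFB6, an accessory subunit of the membrane arm, went from 25.1, 37.8 and 31.8% to 0.546, 4.02 and 8.39% (adjusted p = 2.69e-05). NDUFB7 went from 34.7, 30.3 and 22.8% to 4.05, 8.56 and 10.2% (adjusted p = 4.90e-05). NDUFC2, whose window overlaps the readthrough gene NDUFC2-KCTD14, went from 26.5% ± 9.91 to 10.8% ± 2.91 (SD, n = 3; adjusted p = 0.00291), a difference of -15.7 points that was -10.3 without the second Conventional library. NDUFA12, NDUFB10 and NDUFS5 went from 21.0, 20.9 and 22.5% to 4.43, 8.38 and 5.75% (means of 3 libraries), each with no overlap between the states. NDUFA13, also known as GRIM-19, differed from these. It was at 22.2, 25.1 and 30.1% in Conventional and 23.4, 21.1 and 6.03% in Reset libraries, so that the states overlapped. The adjusted p was 0.0476, and the call was lost without the third Reset library, and also without the second or the third Conventional library. A coding gene of the other strand, TSSK6, overlaps the window.

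The core subunits of complex I carry the flavin and the iron-sulfur clusters along which electrons move from NADH. NDUFV1, which binds NADH and FMN, went from 17.6% ± 1.72 to 8.84% ± 4.34 (adjusted p = 0.00964), and NDUFV2 beside it from 11.2% ± 7.28 to 2.17% ± 1.38 (SD, n = 3; adjusted p = 0.00633). The NDUFV2 difference of -9.02 points was -4.83 without the third Conventional library. NDUFS3 of the quinone module fell from 15.8% ± 3.86 to 2.57% ± 2.04 (adjusted p = 0.000207). NDUFS7 and NDUFS8, the iron-sulfur subunits of that module, fell from 6.09% ± 1.87 to 2.87% ± 1.31 (adjusted p = 0.0201) and from 12.9% ± 3.64 to 7.41% ± 2.55 (adjusted p = 0.0434; SD, n = 3). In both genes the states overlapped, and the call was lost without any of 3 libraries in NDUFS7 and of 5 in NDUFS8. That of NDUFV1 was lost without the second Reset library. NDUFS1, the largest iron-sulfur subunit, was at 0.814% ± 0.318 and 0.606% ± 1.05 (SD, n = 3; adjusted p = 0.690).

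In complex II, which is also succinate dehydrogenase of the citric acid cycle, every promoter mean was lower in Reset cells, but only SDHC and SDHB passed the threshold. SDHC, a membrane anchor, was at 18.7, 25.2 and 18.9% and then at 3.57, 1.27 and 1.79% (adjusted p = 2.92e-06), and SDHB, the iron-sulfur subunit, went from 19.9% ± 4.96 to 3.51% ± 1.66 (SD, n = 3; adjusted p = 6.95e-05). SDHA, the flavoprotein, was at 4.08% ± 0.455 and 2.04% ± 1.18 (adjusted p = 0.0833), and SDHD, the other anchor, at 1.78% ± 1.11 and 0.557% ± 0.522 (SD, n = 3; adjusted p = 0.191). SDHA has near-identical copies elsewhere in the genome, so its calls are uncertain. In complex III the Rieske protein UQCRFS1 was at 14.2, 17.7 and 29.5% and then at 6.72, 1.05 and 4.19% (adjusted p = 0.000508). In complex IV the general subunits COX5A and COX7C, the former at 21.7% ± 3.02 and the latter at 20.9% ± 7.05 in Conventional cells, were at 1.42% ± 0.486 and 7.21% ± 3.54 in Reset cells (SD, n = 3; adjusted p = 5.49e-07 and 0.00501).

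The 11 promoters that did not pass the threshold were those of NDUFA11, NDUFB1, NDUFB3, NDUFS1, NDUFS6, SDHA, SDHD, UQCRC2, UQCRH, COX4I1 and COX5B. Their Conventional means lay between 0.420% in NDUFA11 and 4.13% in COX5B, against a median of 13.6% over all 58 promoters. In NDUFA11 3 of 883 calls were methylated in Conventional and 0 of 590 in Reset cells, which allows a level of up to 0.508%. NDUFS6 was the only member with a higher mean in Reset cells, 0.523% ± 0.563 and 0.807% ± 0.445 (SD, n = 3), a difference smaller than the spread between libraries. Of the members, 16 share their promoter region with a coding gene that starts within 1000 bp on the other strand, as NDUFS1 does with EEF1B2 and COX4I1 with EMC8. The median of these went from 2.93 to 0.577% and 9 of 16 fell, and the median of the 37 general subunits without such a neighbour from 17.3 to 2.87%, of which 33 fell. Over all coding genes, 43.8% of promoters with such a neighbour and 70.1% of those without one fell, with medians of 2.17 and 0.614% and of 18.0 and 6.06% in Conventional and Reset cells.

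Beyond the promoter window, the low region of the general subunits reached further into the gene in Reset cells. Between 500 and 1000 bp after the start site their median level, over pooled calls, was 22.7% in Conventional and 0.493% in Reset cells. Between 1000 and 2000 bp, a window picked once the profile was known, it was 89.6 and 7.43%. Both windows can be set beside 13337 coding genes that, like all general subunits, were under 10% methylated from 250 bp before to 50 bp after the start site in Conventional cells, a set that was likewise picked with the values known. The medians of these genes were 9.16 and 1.69% in the nearer window and 79.3 and 14.5% in the farther. In Reset cells 60.4% of the general subunits and 39.7% of these genes were under 10% in the farther window. Of the members 56, all but SDHB and NDUFA9, had at least 10 calls per library there. All 56 fell, against 88.6% of all coding genes, and none rose, against 3.5%.

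Individual genes spread widely in this window, and the genes named here were picked with their values known. COX4I1, whose promoter was nearly free of methylation in both states, was at 97.1, 95.2 and 100.0% in Conventional and 1.53, 2.02 and 1.54% in Reset libraries (adjusted p = 5.50e-18). COX7A2 was at 94.2, 97.0 and 89.7% and then at 0, 0.746 and 0.794% (adjusted p = 3.59e-18). UQCRH, the hinge protein of complex III, was at 95.7, 87.6 and 78.9% and then at 0, 0.595 and 1.80% (adjusted p = 1.54e-17). These 3 windows were largely methylated in Conventional cells and no higher than 2.02% in any Reset library. At the other end, NDUFB4 was at 92.5, 84.4 and 92.1% and then at 48.0, 64.0 and 35.7% (adjusted p = 2.64e-06). COX5B was at 100.0, 96.1 and 100.0% and then at 32.1, 35.7 and 44.4% (adjusted p = 1.94e-10), and the tissue-restricted COX6A2 at 97.2, 92.9 and 97.6% and then at 79.2, 53.3 and 60.5% (adjusted p = 2.42e-05). The window runs past the end of short transcripts, by 1000 bp in COX6A2, where it lies wholly outside the gene, by 826 bp in COX8C, 475 bp in COX7A1 and 77 bp in COX8A. None of the tissue-restricted isoforms was under 10% in Reset cells in this window, and of the general complex IV subunits 9 of 10 were, COX5B being the exception.

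**Figure D3:**
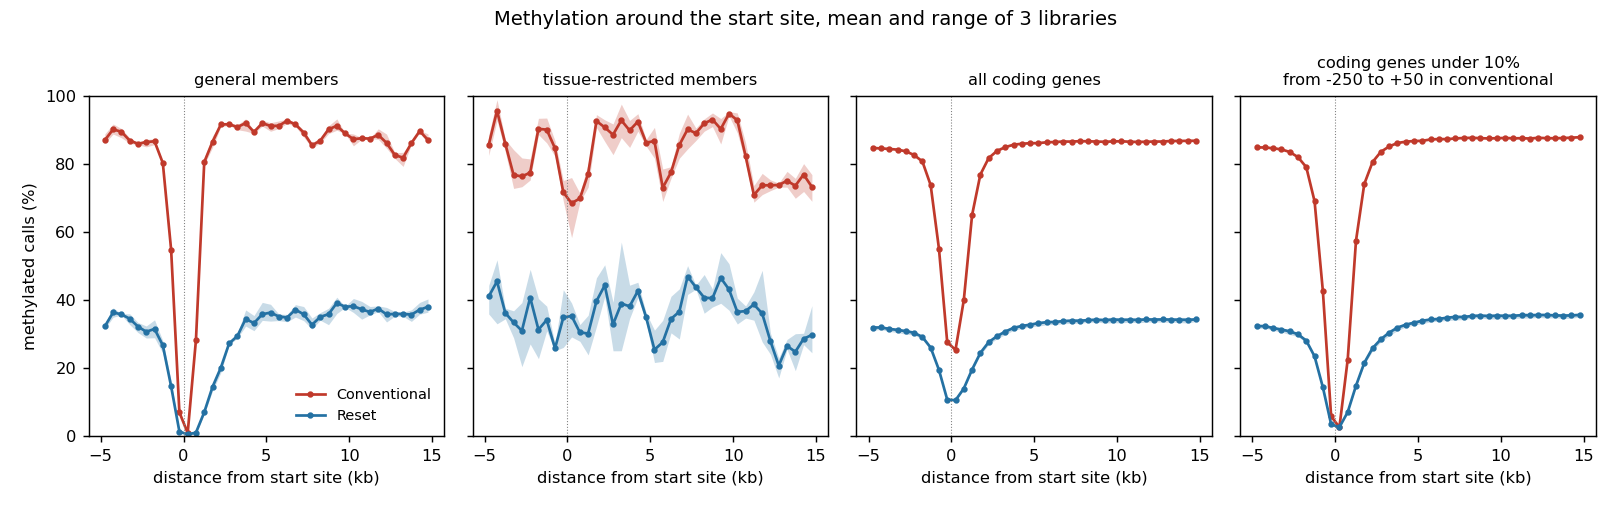
Mean methylation (percentage of methylated calls, linear axis) in bins of 500 bp against distance from the start site in kb, for the 53 general subunits, the 5 tissue-restricted isoforms, all coding genes and the coding genes under 10% around the start site. Lines are means of 3 libraries and bands their range, Conventional in red and Reset in blue. Between 1000 and 1500 bp after the start site the general subunits are at 80.6% and 7.01%, and the coding genes under 10% around the start site at 57.5 and 14.8%.

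**Figure D4:**
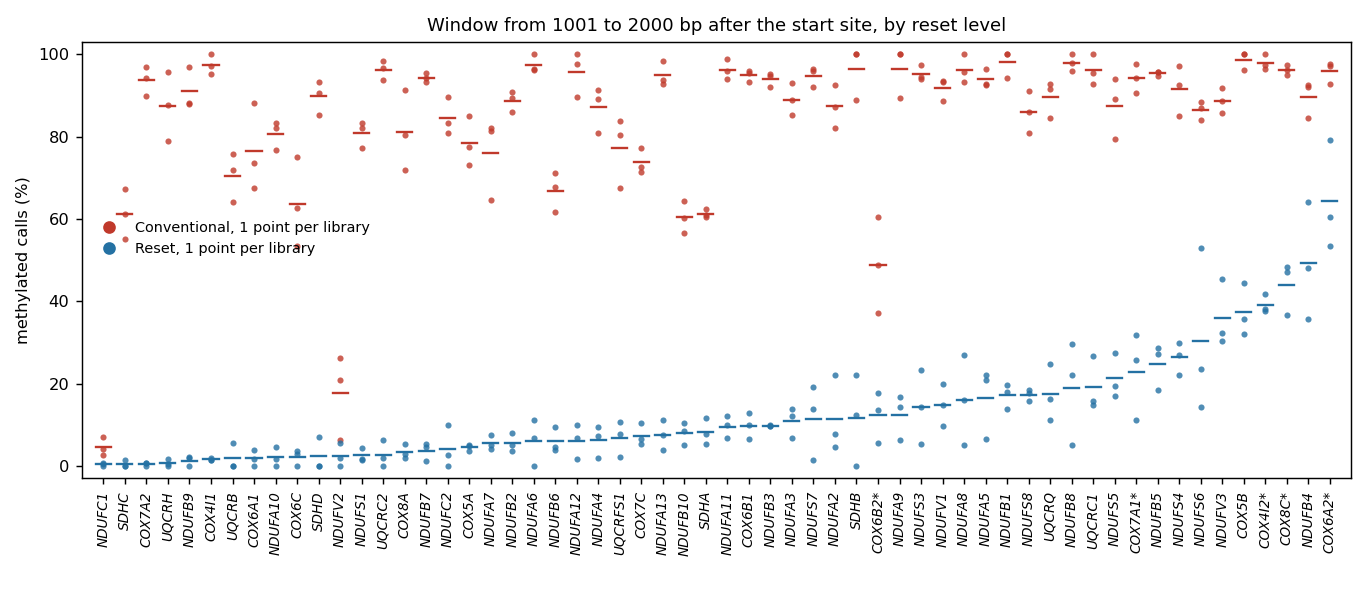
Methylation (percentage of methylated calls, linear axis) from 1000 to 2000 bp after the start site in the 58 genes, in order of the Reset mean, with 1 point per library and lines at the means of 3 libraries. Asterisks mark tissue-restricted isoforms. Reset means run from 0.459% in NDUFC1 to 64.3% in COX6A2, whose window lies past its transcript, while most Conventional means lie above 60%.

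Gene bodies, from 500 bp after the start site to the end of the canonical transcript, fell in every member tested. Of the 58 bodies 57 had enough calls, and all 57 fell with no overlap between the states, as did 97.8% of all coding bodies by the test and 97.7% by the absence of overlap. None rose, against 1.14% of all coding bodies. COX6A2 could not be tested, since its body of 130 bp had no call in the second Reset library. The median body level of the members was 87.6% in Conventional and 28.3% in Reset cells, and that of all coding genes 87.5 and 34.0%. Member bodies with the highest Reset levels were those of COX8C (47.5% ± 5.87), NDUFS1 (45.1% ± 1.83) and SDHA (44.4% ± 3.06), and those with the lowest were COX8A (1.97% ± 0.875), COX6A1 (5.29% ± 2.69) and NDUFB10 (5.45% ± 2.08; SD, n = 3 each). COX8A was at 39.2, 43.0 and 65.8% in Conventional and 1.29, 2.96 and 1.67% in Reset libraries (adjusted p = 5.96e-10).

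Body level in Reset cells went with body length. Across the 57 member genes the Reset level and the logarithm of length had a Spearman correlation of 0.601 and a Pearson correlation of 0.567, and across 19298 coding bodies of 0.212 and 0.227. These are correlations across genes, which are not independent replicates. Short bodies consist to a larger part of the stretch up to 2000 bp after the start site, where the general subunits were low in Reset cells. The part of this stretch in the correlation was not tested. In the 13 member bodies under 5000 bp the median was 75.6% in Conventional and 17.8% in Reset cells, and in the 12 of at least 20 kb it was 91.1 and 35.1%. All coding bodies of at least 20 kb had medians of 88.5 and 35.6%, close to those of the long members.

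**Figure D5:**
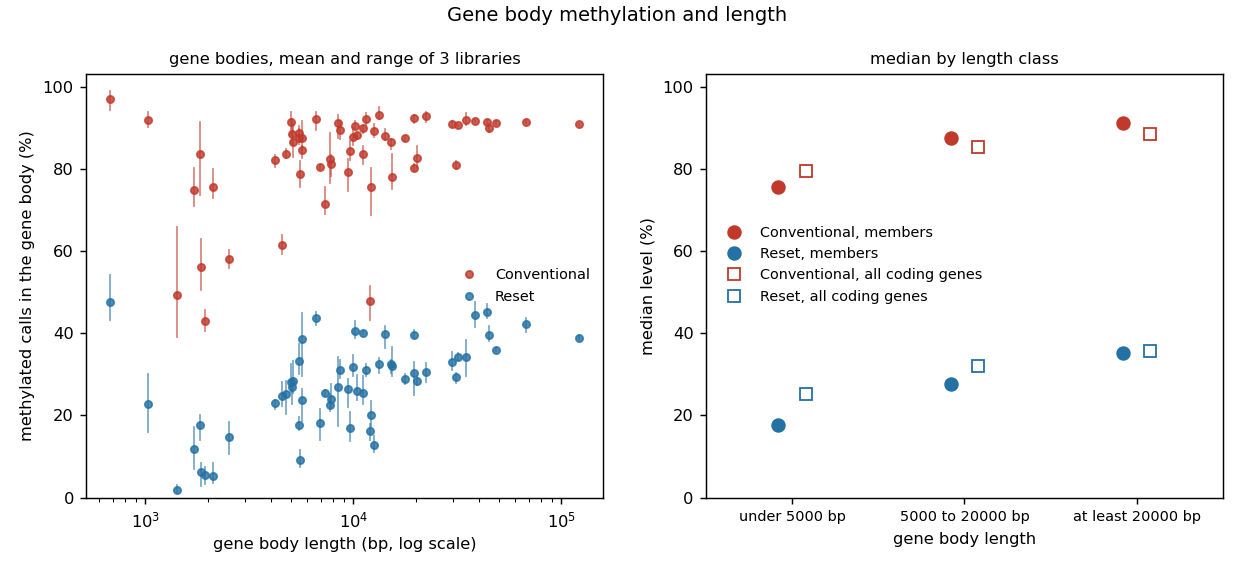
Gene body methylation (percentage of methylated calls, linear axis) against body length in bp on a log scale for 57 members (left, mean and range of 3 libraries), and the median by length class for members and all coding genes (right). Conventional is in red and Reset in blue. Under 5000 bp the members' Reset median is 17.8% and that of all coding genes 25.3%, and at 20 kb or more the medians are 35.1 and 35.6%.

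Motifs of factors known to act on respiratory genes were searched from 250 bp before to 50 bp after the start site on both strands. The NRF1 motif GCATGCGC, bound by nuclear respiratory factor 1, was found in 10 of 58 members (17.2%) and in 4.24% of all 20098 coding genes. The ETS motif CCGGAAG, the core of sites of NRF2 (GABP), was found in 16 members (27.6%; all coding genes 14%), and the YY1 motif AAGATGGCG in 8 (13.8%; 2.83%). GGGCGGG, the SP motif, was found in 13 members (22.4%; 46.9%). None of the 5 tissue-restricted isoforms held any of the NRF1, ETS or YY1 motifs, and 1, COX4I2, held the SP motif. Beside rates of 4.24, 14 and 2.83% over all coding genes, 5 genes are too few for this lack to set them apart. The coding genes used as background were not matched for CpG content. Matches were counted for each motif on its own, and a match is a run of letters and not a measured binding site.

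Other genes of respiration and its regulation were taken from lists for comparison. Of 8 further subunits of complexes I to IV, 7 promoters fell. COX7B2, an isoform of subunit VIIb with high expression in testis, was the only highly methylated one, at 86.7, 85.9 and 88.9% in Conventional and 34.0, 23.2 and 23.8% in Reset libraries (adjusted p = 5.30e-07). The promoter that did not pass was that of NDUFA4L2, an NDUFA4 paralogue induced by low oxygen and named here with its values known, at 34.0, 40.3 and 35.3% and then at 21.3, 39.2 and 37.5% (adjusted p = 0.721). Of 19 genes of cytochrome c and complex V 12 promoters fell, of 45 assembly factors 30, and of 18 regulators of mitochondrial biogenesis 10, none of them with a rise. These shares of 63.2, 66.7 and 55.6% were no higher than the 67.5% of all coding promoters. Medians were 5.50 and 1.06%, 7.48 and 1.21%, and 4.63 and 1.23% in Conventional and Reset cells.

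Glycolysis genes, from the pathway that supplies ATP without the respiratory chain, had shares near those of all coding promoters. Of 39 promoters 23 fell (59.0%, against 67.5% of all coding promoters), 2 rose (all coding 3.97%) and 14 did not pass the threshold. In Conventional cells 28.2% were at 50% or more, and 26.9% of all coding promoters were. Promoters above 50% in Conventional cells included those of PGK2 of testis (86.2 to 16.4%), PGAM2 of muscle (63.1 to 20.3%), HKDC1 (88.8 to 30.9%), PKLR (92.5 to 31.4%), LDHAL6A (92.8 to 33.7%), HK3 (93.2 to 37.7%), LDHAL6B (94.3 to 39.6%), GAPDHS of sperm (88.5 to 40%) and SLC2A2 (88.2 to 42.3%). Each of these fell with no overlap between the states. ENO4, an enolase of sperm, rose from 12.2, 12.3 and 5.99% to 26.6, 14.2 and 26.6% (adjusted p = 0.00847). SLC16A3, the lactate exporter MCT4, had 11.1, 5.45 and 8.36% and then 11.1, 15.4 and 11.3%, and passed the threshold at an adjusted p of 0.0437 with overlapping libraries. Its direction turned at the most upstream start site (-46.5 points) and from 250 bp before to 50 bp after the canonical one (-0.741 points), and the call was lost without the second or the third Conventional library or the second Reset library.

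Several genes have further annotated start sites. With the promoter placed at the most upstream one, 9 members were at 50% or more in Conventional cells in place of 4, and the additional ones are general subunits. The upstream start of NDUFB2, 5931 bp from the canonical one, was at 96.5, 94.8 and 86.7% in Conventional and 38.6, 33.8 and 40% in Reset libraries (adjusted p = 2.16e-06). That of UQCRC1, 1330 bp away, was at 61.0, 45.5 and 66.7% and then at 14, 9.92 and 9.09% (adjusted p = 2.55e-06). NDUFV1 and NDUFA13 went from 70.4 and 64.4% to 41.7 and 39.1% (means of 3 libraries). The upstream window of COX7A2 holds only 3 CpGs, with 41 calls in the 3 Conventional and 48 in the 3 Reset libraries together, and was at 79.5% ± 18.6 and 21.1% ± 10.7 (SD, n = 3). The canonical promoters of NDUFB2, UQCRC1 and COX7A2 were at 18.3, 2.85 and 6.74% in Conventional cells, so the level assigned to these genes depended on the start site.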

How the data were processed

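Whole-genome bisulfite libraries of 3 Conventional and 3 Reset H9 samples were used. The authors trimmed reads with Trim Galore, aligned them to GRCh37 with Bismark and Bowtie2, and deposited, per cytosine, counts of methylated and unmethylated calls. The submitters' processing notes name Bismark 0.9.0, and the methods text another version. Removal of duplicate reads is not stated in the sources used here. The calls of both strands of a CpG were added up. The members and lists were chosen with earlier results of these data known.

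Promoters (1000 bp before to 500 bp after the canonical start site) and bodies were taken from GENCODE release 44 lifted to GRCh37, and 279 coding genes without a canonical tag were given a fallback transcript. For all 20098 coding genes of chromosomes 1 to 22 and X, features covered by 10 calls or more in each of the 6 libraries entered a quasi-binomial logistic fit, whose dispersion was squeezed with limma 3.58.1 and kept at 1 or more, and Benjamini-Hochberg adjusted p-values under 0.05 were called. Levels are means of library levels ± SD unless calls are said to be pooled. The model was tested on simulated data. Alternatives were a Fisher test on pooled calls, edgeR 4.0.16, no squeezing, other windows and start sites, other call minimums, a replicate block and leaving out each library. The genes named are members at 10% or more in either state, the isoform pairs, the core subunits, the 3 highest and 3 lowest bodies in Reset cells, and genes of the lists at 50% or more in Conventional cells (at most 12 by largest fall) or called higher. Some genes and sequences that meet these rules are not reported here. Python 3.11.15 and R 4.3.3 were used.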

Additional observations from a re-analysis of the deposited data

How the results depend on the processing

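The window decided most of the promoter calls. With promoters from 250 bp before to 50 bp after the start site, 1 member and 1091 coding promoters fell and 102 coding promoters rose, and, of the 56 members tested, 2 were at 50% or more in Conventional and 1 in Reset cells. COX6A2 and COX8C, which are also above 50% there in Conventional cells, had too few calls to be counted. With 500 bp on each side, 20 members and 7585 of 19054 coding promoters fell. Without squeezing of the dispersion 32 members fell and 485 coding promoters rose, by edgeR 44 members fell, and by Fisher's exact test on pooled calls 49. The shares of all coding promoters that fell in these fits are not given, so the member counts have no background beside them. At the most upstream start site 9 members were at 50% or more in Conventional cells. Leaving out 1 library left 38 to 44 member promoters lower, a count for which the share of all coding promoters is likewise not given. In these fits 1 to 2 members were at 50% or more in Reset cells, with 1 without the first Reset library. Calls of 12 genes were lost in at least 1 of these fits, NDUFA6 and NDUFS8 without any of 5 libraries. The 5 tissue-restricted isoforms were not among them. Bodies of all 57 members tested fell in every setting run, apart from 49 of fewer tested with the body taken from 2000 bp. Shares of all coding bodies in these settings are not given. In the window from 1000 to 2000 bp, 48 to 57 members fell. The number of members with enough calls there also changed between settings. A share over all coding genes is given for the main fit only (88.6%).

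Differences (Reset minus Conventional, in points) that changed sign from 250 bp before to 50 bp after the start site were those of NDUFA3 (0.412), NDUFA9 (0.585), NDUFA13 (1.85), NDUFB10 (0.208), NDUFC2 (1.31), NDUFS3 (1.71), NDUFS4 (0.490), NDUFV2 (0.717), NDUFV3 (0.483), SDHB (0.222), SDHC (0.857), UQCRC1 (0.272), UQCRFS1 (0.0280), COX6B1 (0.952), COX4I1 (0.777), SDHA (0.994) and SLC16A3 (-0.741). With 500 bp on each side, among the genes named by the rule, they were those of NDUFA9 (0.483), NDUFA13 (1.37), NDUFS3 (0.274), NDUFS1 (0.0181), SDHA (0.392) and SDHD (0.0776). NDUFS1 ranged from -0.814 to 0.0953 when 1 library was left out, and SLC16A3 was at -46.5 at its most upstream start site. None of the member differences that changed sign from 250 bp before to 50 bp after the start site was called there, and they rest on few methylated calls. NDUFA3 had 0 of 215 calls methylated in Conventional and 1 of 182 in Reset cells, and NDUFA13 had 0 of 222 and 1 of 162. NDUFB10 had the most among them, 7 of 300 and 9 of 364. The cause was not tested.

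Replicate numbers were shared by the states but did not pair the libraries: deviations of same-numbered libraries correlated at 0.0066, 0.0103 and 0.0083, and the first Conventional library correlated best with the third Reset library (0.008). With the replicate block 43 member promoters fell, and the calls of NDUFA13, NDUFB5, NDUFS8 and COX6C were lost. The share of all coding promoters that fell with the block is not given, so this count has no background beside it. Depth limits single CpGs and short windows, and COX6A2 and COX8C could not be tested near the start site.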
